A study of Mus musculus with 22 samples.

Results

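The 32 genes described here are oligodendrocyte and myelin genes, chosen by symbol from the 17306 genes of the deposited expression table. All 32 were found and all 32 passed the filter on low values, which kept 16765 genes. They fall into 7 genes for myelin membrane, channel and tight junction proteins, 9 for the myelin surface, axoglial contact and cytoskeleton, 5 for lipid and lipid-related enzymes, 5 for transcription factors and 6 other oligodendrocyte genes.

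RNA was sequenced from lumbar (L4 to L6) spinal cord of 22 wildtype C57BL6J mice aged 12 to 14 weeks, collected on day 30. Every mouse, controls included, had 1 mg of sodium iodoacetate (MIA) injected into the knee joint, a model of joint damage and lasting pain, so no group shows the uninjured cord. The treatment was SAFit2 at 100 mg/kg, an inhibitor of the stress-axis co-chaperone FKBP51, given in a slow-release vesicular phospholipid gel (VPG), and the controls had the gel alone. Early SAFit2 (5 mice) and Early Vehicle (6 mice) received the gel around the injury, on days -3 and 4 by the series design and on days 3 and 4 by the sample labels, whereas Late SAFit2 (5 mice) and Late Vehicle (6 mice) received it on days 20 and 27. For the Early SAFit2 group, SAFit1 stands in the sample titles against SAFit2 in the treatment field, which was followed here. The labels also name Early and Late as batches, so timing and batch cannot be told apart, and the interval from the last gel to collection differed between the timings. The study describes the mice of the early and late schedules as male and the sequenced tissue as dorsal horn quadrants of the injured side, whereas the labels name only the spinal cord segments.

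Oligodendrocytes wrap axons of the central nervous system in myelin, a membrane rich in galactolipids and in a small set of structural proteins. Sox10, Olig1, Olig2 and Nkx6-2 act in the lineage and its differentiation, and Myrf switches on the genes of the mature myelinating cell. In the lumbar cord, myelin covers the ascending and descending tracts of the white matter as well as many axons in the grey matter, and spinal nerve roots attached to a dissected piece carry Schwann cell myelin, which shares Mbp, Mag, Cnp, Gjb1, Mal and Pllp with that of oligodendrocytes.

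Reads on genes ranged from 11352989 to 24433349 per library, and the 32 genes took between 1.34% and 2.34% of them. Every member was counted in every library, with Ninj2 the lowest at 26 reads and Mbp never below 68617 reads. The library values differed in how they changed with the GC content of the gene, with slopes per 10 percentage points of GC of -0.475 to -0.053 log2 units in Late SAFit2, -0.321 to 0.490 in Late Vehicle, -0.165 to 0.261 in Early SAFit2 and -0.236 to 0.311 in Early Vehicle. In Late Vehicle, replicates 2 and 6 had negative slopes of -0.163 and -0.321, and the other 4 had slopes of at least 0.255. The summed level of 14 markers of Schwann cells and nerve roots ran from 203 to 4444 CPM (read counts scaled to a common library size) in Late SAFit2, from 899 to 1901 CPM in Late Vehicle, from 1719 to 4119 CPM in Early SAFit2 and from 1055 to 3444 CPM in Early Vehicle. In this bulk tissue, fewer oligodendrocytes and less RNA per oligodendrocyte cannot be told apart.

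Levels of the members spanned a wide range when expressed per kilobase of the longest transcript. Mbp, which compacts the inner faces of the myelin membrane, stood highest at 1843 ± 378 CPM per kb (SD, 22 mice), followed by Trf, the iron carrier transferrin, at 613 ± 128 CPM per kb and Cnp, an enzyme of non-compact myelin, at 302 ± 47.8 CPM per kb. Below these, Mobp, Bcas1, Mal, Mag, Car2, Qdpr and Cldn11 lay close together between 264 and 201.2 CPM per kb. The transcription factors ranged from 74.97 ± 22.38 CPM per kb for Olig1 down to 8.62 ± 3.72 CPM per kb for Nkx6-2, and the lowest members were Enpp6 at 4.90 ± 1.04 and Ninj2 at 4.68 ± 1.36 CPM per kb. Of the 31 adjacent pairs in this order, only 5 were separated by more than the SD of each neighbour (Mbp from Trf, Trf from Cnp, Mog from Ermn, Pllp from Fa2h and Opalin from Plekhh1), so the order elsewhere is not resolved by the spread over mice.

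**Figure D1:**
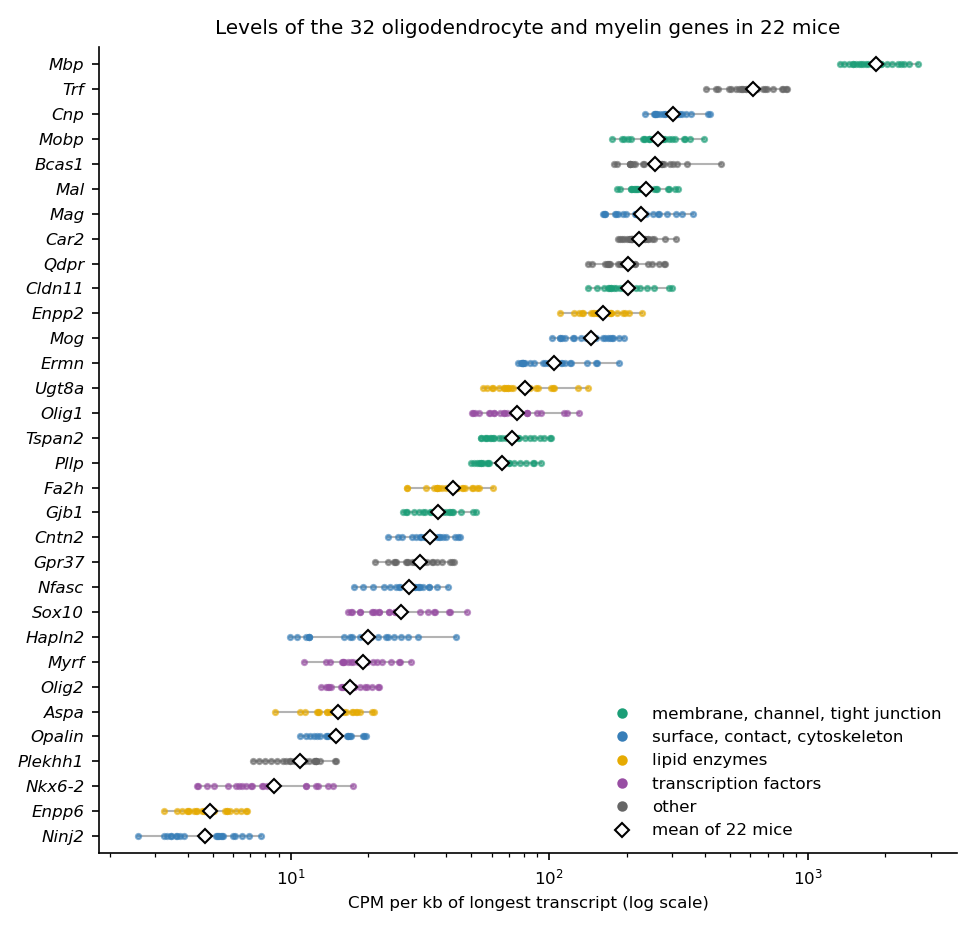
Level of each of the 32 genes in CPM per kb of longest transcript (log axis) in the 22 mice, with small points for single mice coloured by role, grey lines for the range and diamonds for the mean. Mbp at 1843 CPM per kb and Trf at 613 CPM per kb stand clear of the rest, and Enpp6 and Ninj2 lie lowest at 4.90 and 4.68 CPM per kb.

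Averaged over the 32 genes, the level hardly separated the groups. The mean log2 CPM of the members was 7.43 ± 0.15 (SD, 5 mice) in Early SAFit2, 7.48 ± 0.14 (6 mice) in Early Vehicle, 7.50 ± 0.10 (5 mice) in Late SAFit2 and 7.58 ± 0.17 (6 mice) in Late Vehicle. The share of reads on the members ran from 1.57% to 2.19% in Early SAFit2, from 1.53% to 2.21% in Early Vehicle, from 1.34% to 1.86% in Late SAFit2 and from 1.60% to 2.34% in Late Vehicle, and the ranges of the 4 groups overlapped.

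**Figure D2:**
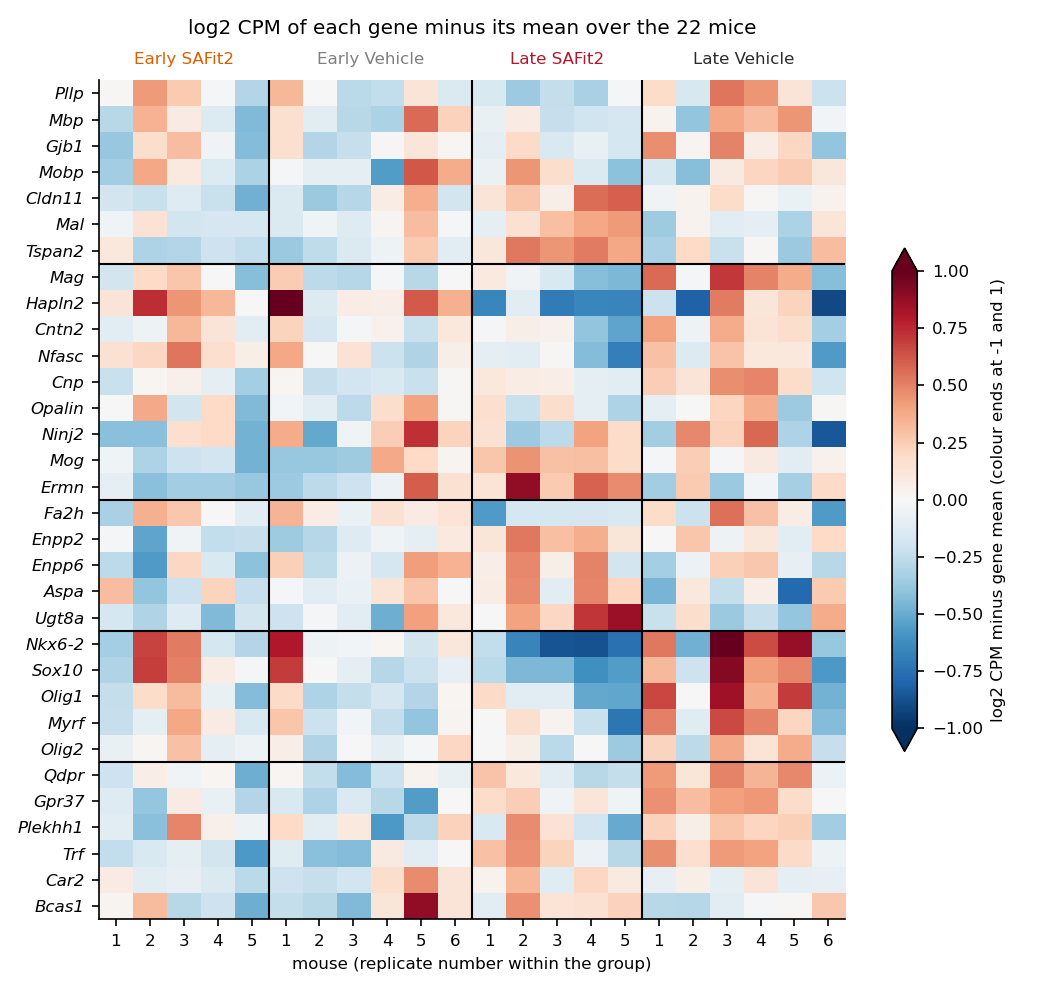
log2 CPM of each gene minus its mean over the 22 mice, with a column per mouse in 4 groups and a row per gene, grouped by role and, within a role, by the late log2 fold change. In Late SAFit2 the rows of Nkx6-2 and Sox10 are blue and those of Ermn, Ugt8a and Tspan2 are mostly red, and Late Vehicle replicates 2 and 6, at 3.45 and 3.55 for Nkx6-2, lie near the Late SAFit2 mice in that row.

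The late comparison (Late SAFit2 against Late Vehicle) asks which genes differed on day 30 when SAFit2 was given in the weeks after the injury. With limma across all genes and Benjamini-Hochberg adjustment, 7 of the 32 members passed an adjusted p of 0.05 with at least a 1.2-fold change, which is 21.9% of them against 12.1% of all genes tested (2021 of 16765). Among these 7, the 4 that rose were Ermn, Ugt8a, Tspan2 and Mal, and the 3 that fell were Nkx6-2, Sox10 and Olig1, with 5.33% of all genes called higher and 6.72% called lower. When each library was centred on its median gene, the split over all genes turned from 894 higher and 1127 lower to 1139 higher and 924 lower, and that of the members from 4 and 3 to 4 and 2. At an unadjusted p under 0.05, 15 members differed (7 higher, 8 lower), against 34.5% of all genes (15.6% higher, 19.0% lower). The median member log2 fold change was -0.18, and that of all genes was -0.05. For none of the 32 members did the values of the late groups separate completely, which 1.71% of all genes did.

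The transcription factors were all on the lower side, with a median log2 fold change of -0.56. Nkx6-2, a homeobox factor of oligodendrocyte differentiation, had log2 CPM values of 3.68, 3.27, 3.06, 3.06 and 3.19 in the 5 Late SAFit2 mice, and 3.45 (lowest), 4.52 (median) and 5.06 (highest) in the 6 Late Vehicle mice. The groups overlapped only through Late SAFit2 replicate 1 and Late Vehicle replicates 2 and 6. The log2 fold change was -1.07 ± 0.26 (SE), or 2.09-fold lower, with a limma adjusted p of 0.0324 and an exact two-sided permutation p of 0.0173 over all splits of the mice. Sox10, the SRY-box factor needed for terminal differentiation, had log2 CPM values of 5.88, 5.69, 5.70, 5.53 and 5.58 in Late SAFit2, and a lowest, median and highest value of 5.57, 6.52 and 7.06 in Late Vehicle. Late Vehicle replicate 6 was again the mouse within the range of the treated group, and replicate 2 lay just above it at 5.93. Sox10 fell by 0.70 ± 0.21 (SE) on the log2 scale, with an adjusted p of 0.0399 by limma and an exact permutation p of 0.0303. Olig1, a basic helix-loop-helix factor, fell by 0.56 ± 0.19 (limma adjusted p = 0.0498), with an exact permutation p of 0.0584.

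The other transcription factors did not pass the test. For Myrf, the regulator of myelin gene transcription, log2 CPM was 6.72, 6.88, 6.76, 6.5 and 6.0 in Late SAFit2, and 6.29, 7.08 and 7.38 as lowest, median and highest in Late Vehicle. The log2 fold change of Myrf was -0.37 ± 0.18 (SE), with an adjusted p of 0.137 by limma. Olig2, the lineage partner of Olig1, had 5.42, 5.47, 5.14, 5.41 and 5.05 in Late SAFit2, and 5.15, 5.59 and 5.79 in Late Vehicle, a log2 fold change of -0.22 ± 0.13. The values of Myrf and Olig2 overlapped widely between the groups.

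Among the myelin membrane, channel and tight junction proteins, directions were mixed, with 2 of 7 called and both higher. Tspan2, a tetraspanin that appears early in oligodendrocyte differentiation, had log2 CPM values of 8.42, 8.83, 8.74, 8.82 and 8.69 in Late SAFit2, and 7.93, 8.20 and 8.61 as lowest, median and highest in Late Vehicle. Late SAFit2 replicate 1 was the only treated mouse within the range of the controls. On the log2 scale Tspan2 rose by 0.46 ± 0.13 (SE), or 1.38-fold, with a limma adjusted p of 0.0342. Mal, a proteolipid of myelin membrane rafts, rose by 0.36 ± 0.11 (limma adjusted p = 0.0458), from a mean log2 CPM of 9.23 ± 0.19 (SD, 6 mice) to 9.58 ± 0.21 (5 mice). Cldn11, the claudin of the tight junction strands between myelin wraps, had a log2 fold change of 0.30 ± 0.12 (SE) that did not pass the adjusted test (0.0868 by limma).

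Mbp, the most abundant member, showed no detectable change. Its log2 CPM was 13.01, 13.17, 12.86, 12.88 and 12.91 in Late SAFit2, and 12.69 (lowest), 13.25 (median) and 13.53 (highest) in Late Vehicle, so that the treated mice lay inside the range of the controls. The log2 fold change was -0.24 ± 0.19 (SE), with an adjusted p of 0.380 by limma. Pllp (plasmolipin) had a log2 fold change of -0.37 ± 0.14, Gjb1 (the gap junction protein connexin 32) of -0.21 ± 0.15 and Mobp (myelin-associated oligodendrocyte basic protein) of -0.02 ± 0.18, and none passed the adjusted test.

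Of the 9 genes for the myelin surface, axoglial contact and cytoskeleton, Ermn alone was called. Ermn, which encodes the cytoskeletal protein ermin of mature oligodendrocytes, had log2 CPM values of 8.66, 9.41, 8.78, 9.11 and 9.0 in Late SAFit2, and 8.15, 8.34 and 8.78 as lowest, median and highest in Late Vehicle. The mice at 9.41, 9.11 and 9.0 were above every control, and replicate 1 at 8.66 lay below 2 of them. On the log2 scale Ermn rose by 0.57 ± 0.16 (SE), or 1.49-fold, with a limma adjusted p of 0.0341. Mog, the glycoprotein on the outermost surface of myelin, had 8.20, 8.37, 8.22, 8.23 and 8.11 in Late SAFit2, and 7.82, 7.94 and 8.18 in Late Vehicle. All 5 treated mice were above the mean of the controls, and the log2 fold change was 0.26 ± 0.12, with a limma adjusted p of 0.133 and an exact permutation p of 0.00649.

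Mag, the adhesion molecule on the axon-facing side of myelin, had log2 CPM values of 9.17, 9.03, 8.91, 8.64 and 8.62 in Late SAFit2, and 8.64, 9.50 and 9.78 as lowest, median and highest in Late Vehicle. All 5 treated mice were below the mean of the controls, while the control at 8.64, replicate 6, was among the lowest of all. The log2 fold change was -0.48 ± 0.17 (SE), with an adjusted p of 0.0591 by limma. Cnp had 9.87, 9.83, 9.83, 9.67 and 9.65 in Late SAFit2, and 9.56, 9.98 and 10.25 in Late Vehicle, a log2 fold change of -0.21 ± 0.11. Neither gene was called. The remaining members of this role were not called either, with log2 fold changes of -0.38 ± 0.23 for Hapln2 (a link protein of the nodal matrix), -0.28 ± 0.13 for Cntn2 (contactin 2 of the juxtaparanode), -0.27 ± 0.15 for Nfasc (neurofascin, of the paranode and node, which neurons also make), -0.08 ± 0.15 for Opalin (a transmembrane protein of the oligodendrocyte) and 0.06 ± 0.27 for Ninj2 (an adhesion protein).

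Of the 5 lipid and lipid-related enzymes, 4 had positive differences and 1, Ugt8a, was called. Ugt8a, which makes galactosylceramide, the main glycolipid of myelin, had log2 CPM values of 8.21, 8.61, 8.41, 8.92 and 9.06 in Late SAFit2, and 7.82, 7.98 and 8.58 as lowest, median and highest in Late Vehicle. The highest controls, replicates 2 and 6, lay within the range of the treated mice. On the log2 scale Ugt8a rose by 0.55 ± 0.16 (SE), or 1.46-fold, with a limma adjusted p of 0.0369. Aspa, which splits N-acetylaspartate, had a log2 fold change of 0.40 ± 0.16 with an adjusted p of 0.0847 by limma. Enpp2 (autotaxin) was at 0.21 ± 0.11 and Fa2h, which hydroxylates the fatty acids of myelin galactolipids, at -0.30 ± 0.15. Enpp6, a choline phosphodiesterase of newly forming oligodendrocytes, had 4.65, 5.06, 4.64, 5.08 and 4.4 in Late SAFit2, and 4.25, 4.51 and 4.86 in Late Vehicle, a log2 fold change of 0.22 ± 0.17.

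None of the 6 other oligodendrocyte genes was called in the late comparison. The log2 fold changes were -0.35 ± 0.13 for Qdpr, which recycles the cofactor tetrahydrobiopterin, -0.21 ± 0.11 for the receptor gene Gpr37, -0.16 ± 0.17 for Plekhh1, -0.14 ± 0.14 for Trf, 0.14 ± 0.12 for Car2 (carbonic anhydrase 2) and 0.24 ± 0.18 for Bcas1, which marks actively myelinating cells. Only Qdpr passed an unadjusted p of 0.05, with an adjusted p of 0.0650 by limma.

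The 7 late calls depended on single mice and on how the spread was fitted. None was made in a fit of the late mice alone, which changed the number of mice and the pooling of the spread together. None was made without the trend of variance on level either, a fit that still pooled the 4 groups. No member was called after leaving out any of Late Vehicle replicates 1, 3, 4 and 5 or Late SAFit2 replicates 2, 4 and 5, and 4 members were called without Late SAFit2 replicate 3. Conversely, 16 members were called without Late Vehicle replicate 6. In each fit that left out a mouse the late log2 fold changes of the 7 genes kept their signs. They ran from -1.24 to -0.92 for Nkx6-2 and from 0.47 to 0.65 for Ermn.

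**Figure D3:**
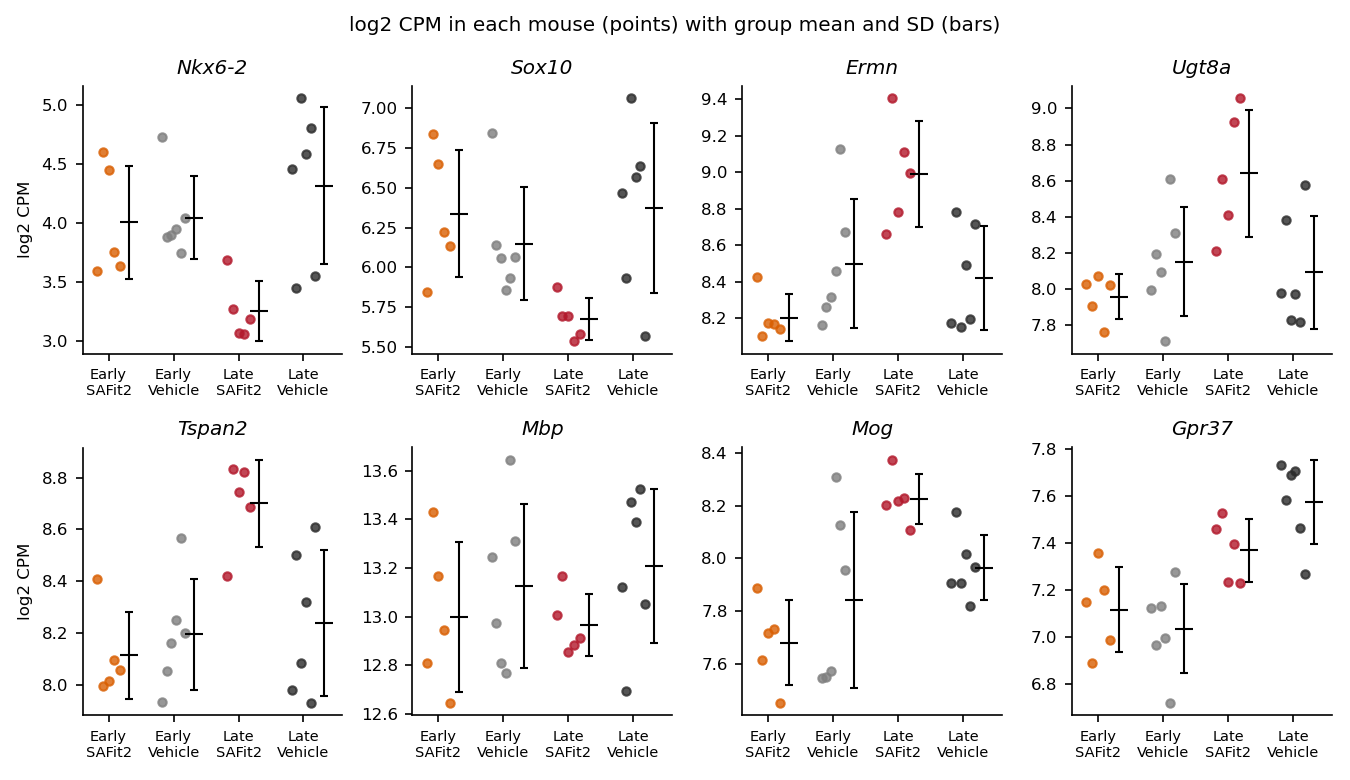
log2 CPM of 8 members in each mouse (points) of the 4 groups, with the group mean and SD as bars; each panel has its own axis, which does not start at 0. In Late SAFit2, Nkx6-2 lies between 3.06 and 3.68 and Sox10 between 5.53 and 5.88, while Late Vehicle spreads from 3.45 to 5.06 and from 5.57 to 7.06.

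The called members also fell apart by base composition. The 4 genes that rose had longest transcripts with a GC content of 38.0% (Ugt8a), 38.0% (Ermn), 42.2% (Tspan2) and 48.9% (Mal), whereas the 3 that fell had 61.1% (Olig1), 61.8% (Sox10) and 64.3% (Nkx6-2). To show this contrast, 120 bases of coding sequence are given for 2 genes of each kind, each a stretch within a single exon whose GC content is nearest to that of the whole coding sequence (GENCODE M21, GRCm38), with G and C in capitals.
Ermn, chr2:58052541-58052660, minus strand: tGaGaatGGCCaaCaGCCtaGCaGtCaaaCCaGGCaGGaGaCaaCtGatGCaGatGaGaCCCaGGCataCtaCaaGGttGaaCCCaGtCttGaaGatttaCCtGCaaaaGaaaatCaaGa
Ugt8a, chr3:125915319-125915438, minus strand: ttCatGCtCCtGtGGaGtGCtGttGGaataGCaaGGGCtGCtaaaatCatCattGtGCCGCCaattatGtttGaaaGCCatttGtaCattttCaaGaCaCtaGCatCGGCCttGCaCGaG
Sox10, chr15:79163351-79163470, minus strand: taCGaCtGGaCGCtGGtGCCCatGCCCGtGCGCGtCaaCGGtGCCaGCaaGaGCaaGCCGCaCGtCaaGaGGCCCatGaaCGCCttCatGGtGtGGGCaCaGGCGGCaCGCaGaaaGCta
Nkx6-2, chr7:139582420-139582539, minus strand: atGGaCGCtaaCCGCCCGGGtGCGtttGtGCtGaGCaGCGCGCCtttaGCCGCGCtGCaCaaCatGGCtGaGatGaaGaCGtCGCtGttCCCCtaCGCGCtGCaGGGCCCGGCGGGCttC
Of the 120 bases, 55 are G or C in Ermn and 54 in Ugt8a, against 76 in Sox10 and 79 in Nkx6-2. The whole coding sequences have GC contents of 45.7%, 44.6%, 63.3% and 65.5%, in the same order. That of Mal, which also rose, lies between them at 53.2%.

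Across the 32 members, the late log2 fold change followed GC content closely, with a Pearson r of -0.885 and a Spearman rho of -0.883. This is a description across genes of the same libraries, which share any library-wide dependence on GC. All 6 members under 45% GC had positive differences (median log2 fold change 0.43), and all 10 members at 55% or above had negative differences, with a median of -0.30 in the 7 between 55% and 60% and of -0.70 in the 3 above. The same held over all genes, with r = -0.612 and rho = -0.677 over 16213 genes with a known GC content and medians of 0.33 below 45% GC and of -0.64 at 60% or above.

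After the trend on GC content and transcript length was removed from each library, no member and no gene was called in the late comparison. At an unadjusted p under 0.05, 7 members differed, against 15.6% of all genes, and their log2 fold changes were -0.41 ± 0.13 (SE) for Nkx6-2, 0.31 ± 0.09 for Mal, 0.30 ± 0.11 for Cldn11, -0.26 ± 0.10 for Qdpr, -0.25 ± 0.09 for Gpr37, 0.22 ± 0.10 for Mog and 0.22 ± 0.11 for Olig2. The differences of Ermn, Ugt8a and Tspan2 shrank to 0.10 ± 0.10, 0.08 ± 0.10 and 0.12 ± 0.08, and those of Sox10 and Olig1 to -0.11 ± 0.09 and -0.03 ± 0.09. Olig2 changed sign, from -0.22 to 0.22. The other 6 of these 7 genes kept their sign. Their exact permutation p values after correction were 0.00866 for Nkx6-2, 0.0238 for Mal, 0.0238 for Cldn11, 0.0108 for Mog, 0.0325 for Gpr37 and 0.0541 for Qdpr. The smallest adjusted p of any member by limma was 0.133. With the GC slope of each library as a covariate instead, no member was called either, and the late differences of Sox10 and Olig1 changed sign.

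**Figure D4:**
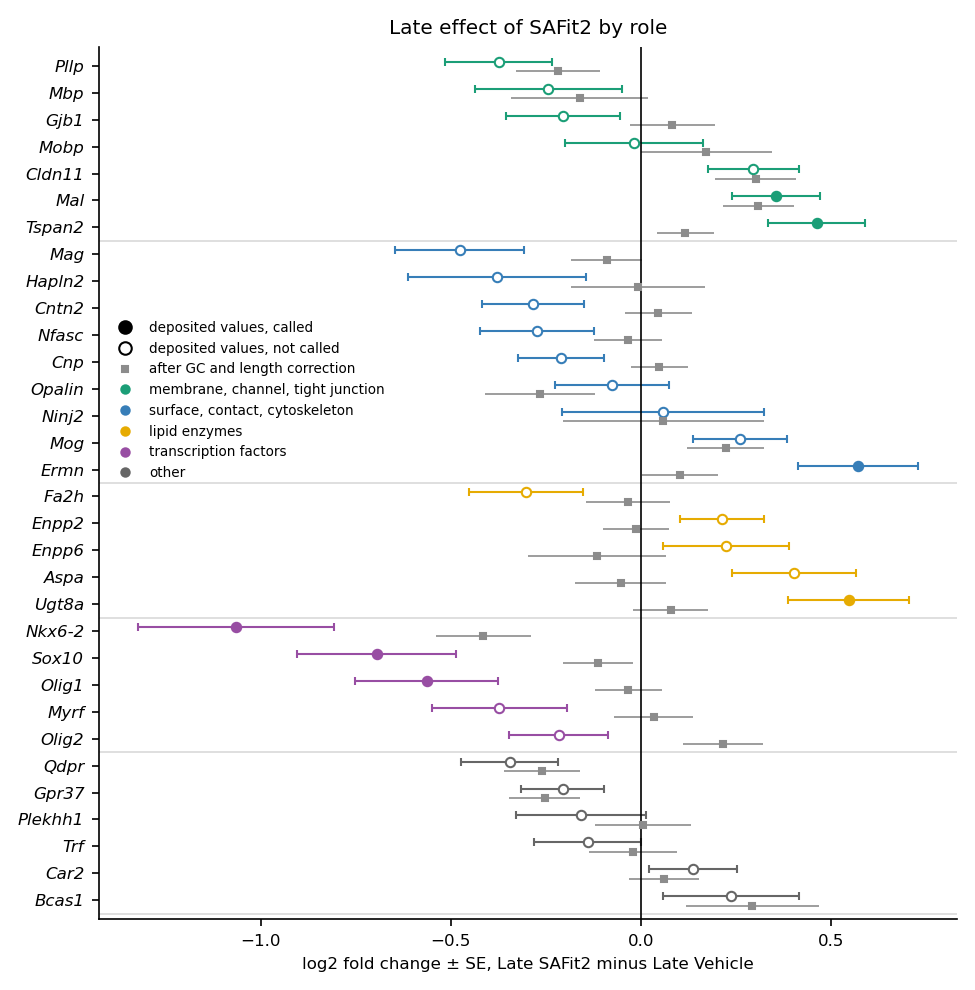
Late log2 fold change (Late SAFit2 minus Late Vehicle) with its SE for the 32 members by role, from the deposited values (circles, filled where called) and after GC and length correction (grey squares). The circles run from -1.07 for Nkx6-2 to 0.57 for Ermn, and the squares run from -0.41 to 0.31.

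**Figure D5:**
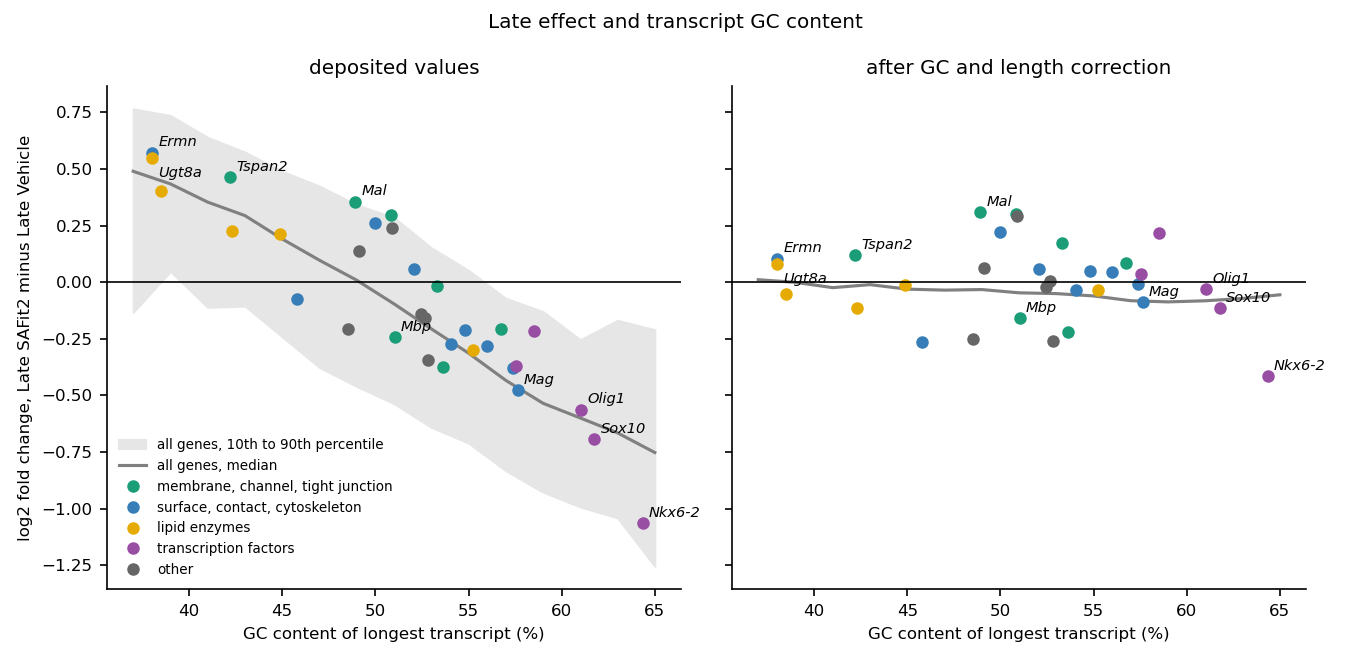
Late log2 fold change of the 32 members (points, coloured by role) against the GC content of the longest transcript in percent, before (left) and after (right) GC and length correction. Grey lines are medians of all genes in bins of 2 percentage points and the grey band runs from percentile 10 to percentile 90. On the left the members fall along the line of all genes from Ermn (0.57 at 38.0% GC) to Nkx6-2 (-1.07 at 64.3% GC), and on the right the line is nearly flat.

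The early comparison (Early SAFit2 against Early Vehicle) asks which genes differed on day 30 when it was given around the time of injury. No member was called, nor was any of the 16765 genes (0.0%), and no member passed an unadjusted p of 0.05 by limma, which 2.48% of all genes did (416), with 1.54% lower. The median member log2 fold change was -0.06, against 0.01 for all genes, and 20 of 32 members had negative differences, a sign that 48.3% of all genes had. All 5 lipid enzymes were among these, from -0.32 for Enpp6 to -0.08 for Enpp2. After GC and length correction no member was called, and Ermn, at -0.24 ± 0.10 (SE), passed an unadjusted limma p of 0.05 (0.0210, exact permutation p 0.0411), which 4.4% of all genes did.

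The members with the lowest unadjusted p were Enpp6, Ermn and Nfasc. Enpp6 had log2 CPM values of 4.32, 4.01, 4.79, 4.43 and 4.17 in Early SAFit2, and 4.33, 4.67 and 5.0 as lowest, median and highest in Early Vehicle, a log2 fold change of -0.32 ± 0.17 (SE) with an unadjusted limma p of 0.0600. Ermn had 8.43, 8.10, 8.17, 8.17 and 8.14 in Early SAFit2, and 8.16, 8.39 and 9.13 in Early Vehicle, a log2 fold change of -0.30 ± 0.16 with an unadjusted limma p of 0.0703. For Ermn the treated mice lay close together except replicate 1, and replicates 5 and 6 were the highest controls at 9.13 and 8.67. Nfasc had 8.25, 8.31, 8.63, 8.27 and 8.16 in Early SAFit2, and 7.80, 8.13 and 8.49 in Early Vehicle, a log2 fold change of 0.21 ± 0.15.

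The genes that stand for the roles overlapped between the early groups. Mbp had log2 CPM values of 12.81, 13.43, 13.17, 12.95 and 12.64 in Early SAFit2, and 12.77, 13.11 and 13.65 as lowest, median and highest in Early Vehicle. Mag had 8.88, 9.26, 9.35, 9.06 and 8.64 in Early SAFit2, and 8.78, 8.93 and 9.32 in Early Vehicle. Mog had 7.89, 7.61, 7.72, 7.73 and 7.45 in Early SAFit2, and 7.55, 7.77 and 8.31 in Early Vehicle. Mbp and Mog were on average lower and Mag higher with SAFit2, each by less than its SD over the control mice. Cnp had 9.54, 9.78, 9.81, 9.67 and 9.42 in Early SAFit2, and 9.53, 9.59 and 9.78 in Early Vehicle, and its log2 fold change of 0.01 ± 0.11 (SE) was the nearest to 0 of the 32.

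The transcription factors showed no early difference beyond the spread over mice. Sox10 had log2 CPM values of 5.84, 6.83, 6.65, 6.22 and 6.13 in Early SAFit2, and 5.86, 6.06 and 6.84 in Early Vehicle. Nkx6-2 had 3.59, 4.60, 4.45, 3.75 and 3.64 in Early SAFit2, and 3.75, 3.93 and 4.73 in Early Vehicle. Replicates 2 and 3 of Early SAFit2 were high for both genes, and replicate 1 of Early Vehicle was the highest control for both. Myrf had 6.5, 6.63, 7.11, 6.81 and 6.57 in Early SAFit2, and 6.33, 6.6 and 7.0 in Early Vehicle. Olig2 had 5.34, 5.44, 5.70, 5.31 and 5.37 in Early SAFit2, and 5.11, 5.41 and 5.62 in Early Vehicle. The log2 fold changes were 0.19 ± 0.21 (SE) for Sox10, 0.09 ± 0.18 for Myrf, 0.08 ± 0.19 for Olig1, 0.04 ± 0.13 for Olig2 and -0.04 ± 0.26 for Nkx6-2.

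The 3 genes that rose in the late comparison and are not yet described were also close between the early groups. Tspan2 had log2 CPM values of 8.41, 8.0, 8.01, 8.10 and 8.06 in Early SAFit2, and 7.94, 8.18 and 8.57 as lowest, median and highest in Early Vehicle. Ugt8a had 8.03, 7.91, 8.07, 7.76 and 8.02 in Early SAFit2, and 7.71, 8.14 and 8.61 in Early Vehicle. Mal had 9.31, 9.5, 9.17, 9.19 and 9.17 in Early SAFit2, and 9.21, 9.32 and 9.66 in Early Vehicle. Their early log2 fold changes were -0.08 ± 0.13 (SE) for Tspan2, -0.19 ± 0.16 for Ugt8a and -0.08 ± 0.11 for Mal, and the early groups overlapped for each.

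The difference between the early and the late effect was tested directly. No member passed the adjusted test, with adjusted p values of 0.120 or more by limma, nor did any gene tested, while 14 members passed an unadjusted p of 0.05 against 24.9% of all genes (4167). Of these members 6 had positive differences (14.0% of all genes) and 8 negative ones (10.9%), and without regard to p 13 of 32 were below 0, as were 46.9% of all genes. The early-minus-late differences with the lowest p were -0.87 ± 0.22 (SE) for Ermn, -0.74 ± 0.23 for Ugt8a and -0.54 ± 0.18 for Tspan2, and on the other side Sox10 differed by 0.88 ± 0.30 and Nkx6-2 by 1.03 ± 0.36. After GC and length correction these differences were -0.35 ± 0.14, -0.22 ± 0.14, -0.18 ± 0.11, 0.20 ± 0.13 and 0.28 ± 0.18. With the correction 3 members with positive and 4 with negative differences passed an unadjusted p of 0.05, against 12.8% of all genes. Cldn11 (-0.42 ± 0.15) and Mal (-0.36 ± 0.13) then had the lowest p, and no gene was called. With the deposited values, leaving out Late Vehicle replicate 6 gave 9 calls, and each other omission gave 0. For the overall effect, the mean of the early and the late effect, 2 members passed an unadjusted p of 0.05 (13.2% of all genes did, 6.03% higher and 7.18% lower), Nkx6-2 at -0.55 ± 0.18 and Tspan2 at 0.19 ± 0.09, and no gene passed the adjusted test. Of the 32 members 22 were below 0, as were 53.1% of all genes. With GC and length corrected, Nkx6-2 was at -0.27 ± 0.09 and Tspan2 at 0.03 ± 0.05, and Nkx6-2 alone passed the unadjusted test, which 7.69% of all genes did.

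The controls of the early and late schedules differed for several members. In Late Vehicle against Early Vehicle, 4 members were called and all 4 were higher (12.5% of the members, against 9.11% of all genes called, 3.29% higher and 5.82% lower). At an unadjusted p under 0.05, 7 members differed (24.3% of all genes did), 6 of them higher (11.2%) and Hapln2 lower (13.0%), and 13 of 32 were below 0 (49.3%). For no member did the vehicle groups separate completely, which 4.92% of all genes did. Centring on the median gene moved the calls over all genes from 552 higher and 975 lower to 1198 higher and 816 lower, and gave 5 members, all higher. Gpr37, a G protein-coupled receptor of differentiating oligodendrocytes, had log2 CPM values of 7.27 (lowest), 7.64 (median) and 7.73 (highest) in Late Vehicle, and 6.72, 7.06 and 7.28 in Early Vehicle. The lowest late control lay just within the early range. The log2 fold change was 0.54 ± 0.10 (SE), or 1.45-fold, with a limma adjusted p of 0.00146 and an exact permutation p of 0.00433. Gpr37 was called in all 22 fits that left out a mouse.

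Qdpr had 8.04, 8.48 and 8.60 as lowest, median and highest log2 CPM in Late Vehicle, and 7.66, 7.95 and 8.14 in Early Vehicle. Trf had 10.54, 10.89 and 11.06 in Late Vehicle, and 10.15, 10.48 and 10.68 in Early Vehicle. All 6 late controls were above the early mean for both genes. Their log2 fold changes were 0.45 ± 0.12 (SE) and 0.43 ± 0.13, with adjusted p values of 0.0186 and 0.0412 by limma. Cnp was higher by 0.35 ± 0.11 (adjusted p 0.0442 by limma), whereas Mbp, at 0.08 ± 0.18, did not differ detectably. Of the 22 fits that left out a mouse, 21 called Qdpr, 13 called Trf and 11 called Cnp. For Gpr37 the treated mice had 7.15, 6.89, 7.35, 7.20 and 6.99 in Early SAFit2 and 7.46, 7.52, 7.23, 7.40 and 7.23 in Late SAFit2. For Qdpr they were 7.89, 8.17, 8.06, 8.12 and 7.61 in Early SAFit2 and 8.38, 8.21, 7.99, 7.82 and 7.86 in Late SAFit2. For Trf they were 10.35, 10.44, 10.50, 10.41 and 10.02 in Early SAFit2 and 10.89, 11.05, 10.81, 10.54 and 10.31 in Late SAFit2. The treated groups overlapped for each of these genes. For Trf only the Late SAFit2 mouse at 10.31 lay within the early range, and the others were above every Early SAFit2 mouse. For Gpr37 the late mice at 7.23 lay below the highest early mouse at 7.35.

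The GC and length correction left these 4 calls in place and added 4, so that 8 members were called, 7 of them higher (15.6% of all genes were called, 7.52% higher), and 9 passed an unadjusted p of 0.05 (29.7% of all genes). The corrected log2 fold changes were 0.53 ± 0.09 (SE) for Gpr37, 0.41 ± 0.10 for Qdpr, 0.39 ± 0.11 for Trf and 0.27 ± 0.07 for Cnp, with Olig1 at 0.30 ± 0.08, Mag at 0.27 ± 0.09, Enpp2 at 0.27 ± 0.08 and Hapln2, the only gene called lower, at -0.65 ± 0.17. Astrocyte markers moved in the same comparison, with 5 of 12 called higher and none lower before the correction and 6 called higher after it. Their summed level ran from 7849 to 8235 CPM in Late Vehicle and from 6000 to 7127 CPM in Early Vehicle. Of the 14 Schwann cell and nerve root genes 13 were below 0 (median log2 fold change -0.44), and none was called with or without the correction. Of the 12 microglial genes 10 were above 0 (median 0.24), with none called before the correction and 3 called higher after it. Above 0 were also 8 of 8 ependymal, 9 of 10 endothelial and mural, 10 of 14 neuronal and 11 of 15 oligodendrocyte precursor genes. Whether these cells bear on the members' values was not tested. Timing, batch and the days since the last gel cannot be told apart here. The late effect and this comparison share the Late Vehicle mice, so that a low or high value in these mice enters each of them. For Sox10 the late effect was -0.70 and the vehicle difference 0.22, and for Qdpr the corresponding values were -0.35 and 0.45.

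A further 45 oligodendrocyte and myelin genes were examined beside the members. In the late comparison 5 of them were called higher (5.33% of all genes were) and 2 lower (6.72%). Their median log2 fold change was -0.11, and none was called after GC and length correction. The 3 with the lowest p were Trim59 at 0.72 ± 0.19 (SE), Gjc3, a connexin gene, at 0.43 ± 0.12 and Gpm6b, a membrane glycoprotein gene, at 0.50 ± 0.14, with adjusted p values of 0.0331, 0.0361 and 0.0369 by limma and GC contents of 37.6%, 43.3% and 39.99%. In the early comparison none of the 45 was called. In Late Vehicle against Early Vehicle, 3 of the 45 were called higher (3.29% of all genes) and 1 lower (5.82%). After GC and length correction these were 4 higher and 4 lower, against 15.6% of all genes called. The summed level of the 45 ran from 14680 to 19167 CPM in Late SAFit2 and from 12225 to 15637 CPM in Late Vehicle. It ran from 11723 to 15582 CPM in Early SAFit2 and from 12375 to 27375 CPM in Early Vehicle, where replicates 4 and 5 were highest.

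Lists of markers of other cells showed what else the tissue held. Of 15 genes of oligodendrocyte precursors, 1 was called higher (Lhfpl3, 0.61) and 1 lower (Cacng4, -1.04) in the late comparison, and their summed level was 554 to 599 CPM in Late SAFit2 and 538 to 589 CPM in Late Vehicle. None of the 14 Schwann cell and nerve root genes was called, although their median late log2 fold change was -0.36. Late SAFit2 replicate 2, with the lowest Schwann cell sum of 203 CPM, had values of 13.17 for Mbp and 9.03 for Mag, and replicate 5, with the highest sum of 4444 CPM, had 12.91 and 8.62. Of the remaining lists, 1 of 12 astrocyte genes was called higher and 2 lower, none of 12 microglial genes, 1 of 14 neuronal and 1 of 10 endothelial and mural genes lower, and 2 of 8 ependymal genes lower. The summed neuronal level was 9122 to 16022 CPM in Late SAFit2 and 9183 to 11872 CPM in Late Vehicle, the microglial level 404 to 496 and 426 to 465 CPM, the endothelial and mural level 201.4 to 261 and 228 to 300 CPM, and the ependymal level 141 to 283 and 154 to 293 CPM. The part of these cells in the members' differences was not tested.

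Within groups, the members rose and fell together only in part. Over the 496 pairs of members, the correlation across the 22 mice after removal of group means had a median r of 0.30, from -0.76 to 0.96, with 338 pairs above 0. The mice share library scaling, GC dependence and dissection, so these values are descriptions. The closest pairs were Mag with Olig1 (r = 0.96), Sox10 with Nkx6-2 (0.94), Nfasc with Myrf (0.93), Cntn2 with Myrf (0.93) and Mag with Cnp (0.93), and the most opposed were Tspan2 with Nkx6-2 (-0.76) and with Sox10 (-0.76). After GC and length correction 443 of the 496 pairs were above 0, with a median of 0.36, and the closest pairs were Cntn2 with Trf (0.93) and Mag with Trf (0.89), whereas Mal with Gpr37 was the most opposed (-0.55). Among genes outside the list, those most like the mean of the members over the 22 mice were Efnb3 (r = 0.87), Gltp (0.87), Slco3a1 (0.87), Pacs2 (0.86) and Padi2 (0.86). With the correction they were Prr5l (0.88), Padi2 (0.88), Klk6 (0.86), Pacs2 (0.85) and Sulf2 (0.85), and Padi2 and Pacs2 were in each set of 5.

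Promoter sequences from RefSeq (GRCm38.p6) matched 23 of the 32 members, each covering 250 bases before and 50 after a gene start. The SOX-type words ACAAAG and AACAAT stood, on either strand, in 26.1% and 21.7% of these members, against 21.02% and 12.2% of all 27025 genes with a promoter. The MYRF-type word CTGGCAC stood in the promoters of 4 members, Cnp, Hapln2, Mag and Opalin (17.4%, against 5.73% of all), the variant CTGGTAC in 1, Mog (4.35%, against 2.60%), and the E-box CAGCTG in 5 (21.7%, against 18.3%). Each word was counted by itself, without regard to overlap with another. The surroundings of CTGGCAC are shown for the 3 genes with the word before the start, with the word in capitals as read on the strand of the gene, 30 bases on each side where the window allows.
Cnp, chr11:100574828-100574894, plus strand: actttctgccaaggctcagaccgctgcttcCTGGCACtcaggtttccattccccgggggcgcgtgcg
Mag, chr7:30914923-30914961, minus strand: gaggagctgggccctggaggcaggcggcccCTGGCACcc
Hapln2, chr3:88027619-88027685, minus strand: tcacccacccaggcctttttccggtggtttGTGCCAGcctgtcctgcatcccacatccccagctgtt
The word begins 81 bases before the start in Cnp. Mag has several annotated starts, and the same word begins 9 bases before the start used for the window shown and 68 bases before another, and in Hapln2 its reverse complement begins 144 bases before the start. A match of these letters is a description of the sequence and says nothing about binding, and the shares rest on few genes.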

How the data were processed

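Lumbar spinal cord RNA of 22 mice was sequenced by the authors from directional mRNA libraries, and the deposited values are log2 CPM per gene, with a floor of -3.15 for genes without reads. According to the study's methods and the submitters' processing notes, the authors trimmed reads with Trimmomatic, aligned them with HISAT2 to mm10, counted them per gene with featureCounts and scaled libraries with edgeR by the trimmed mean of M-values. These steps fix the unit: the values carry no correction for GC content or length.

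Mice were grouped by their treatment and batch labels. Whole reads were recovered from the deposited values for 100% of them (tolerance 0.02 reads), and these served for depth and for an alternative fit with limma voom. Genes at log2 CPM of -1 or more in at least 5 libraries were tested (16765 of 17306) with limma 3.58.1 in R 4.3.3: a mean per group, an empirical Bayes variance trend on level, and Benjamini-Hochberg adjustment over all genes tested. A call needed an adjusted p under 0.05 and a change of at least 1.2-fold. For the overall effect it needed an unadjusted p under 0.05 alone, with no fold threshold. Single genes were also tested by exact two-sided permutation over all splits of the mice of the groups compared. GC content and length came from the longest transcript in GENCODE M21, and their trend was removed per library by loess with a span of 0.5 over 16213 genes. The main fit alone was run on simulated counts with known fold changes, for the late comparison and without a trend on GC content. Alternatives were the filter, pseudocounts, normalization, variance model, replicate block, GC terms and leaving out each mouse. A covariate for the library GC slope, and an uncorrected fit of the genes whose GC content was known, were added after the data were seen. Genes were named as members of the list. The members and lists were chosen with earlier results of these data known. Python 3.11.15, pandas 2.3.3, scipy 1.17.1 and matplotlib 3.10.9 were used for tables and figures. Some genes of the wider lists are not reported here.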

Additional observations from a re-analysis of the deposited data

Results flagged for a closer look

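In 9 of the 128 sets of values (32 genes in 4 groups), the highest or lowest mouse stood apart from the other mice of its group by Dixon's ratio of the gap to the whole range, which chance alone gives in about 1 of 20 sets. In Early SAFit2, replicate 1 was the highest for Ermn at a log2 CPM of 8.43 with the next at 8.17 (ratio 0.785) and for Tspan2 at 8.41 with the next at 8.10 (ratio 0.760), and replicate 5 was the lowest for Cldn11 at 8.05 with the next at 8.31 (ratio 0.727). In Early Vehicle, replicate 1 was the highest for Sox10 at 6.84 with the next at 6.14 (ratio 0.716) and for Nkx6-2 at 4.73 with the next at 4.05 (ratio 0.698), and it had the highest GC slope of that group at 0.311 log2 units per 10 percentage points.

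In Late SAFit2, replicate 2 was the highest for Hapln2 at 5.34 with the next at 4.79 (ratio 0.920) and for Gjb1 at 6.06 with the next at 5.80 (ratio 0.716), and replicate 1 was the lowest for Fa2h at 6.13 with the next at 6.52 (ratio 0.955). In Late Vehicle, replicate 6 was the lowest for Plekhh1 at 5.75 with the next at 6.16 (ratio 0.653), and it had the lowest GC slope of its group at -0.321.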

How the results depend on the processing

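Mice that share a number were not paired by it (their deviations correlated at -0.236 to 0.317, and above 0.1 in 2 of 10 pairs). For the late effect, members called (7) and all genes called (2021) became 0 and 62 with a constant variance, 21 and 6381 with library quality weights, 4 and 1231 after quantile normalization, 4 and 876 with limma voom, 0 and 0 in the late mice alone, 15 and 4219 with the replicate block, 0 and 0 after GC and length correction, 0 and 93 with that correction and the block, 0 and 0 with the library GC slope as a covariate, and 15 and 5791 at an unadjusted p. The median member log2 fold change (-0.18) became -0.00037 after GC and length correction and 0.085 with the GC slope, under which Sox10 (0.0448), Olig1 (0.0986) and, for the overall effect, Nfasc (0.168) changed sign. For the early effect, genes called (0) became 13 with quality weights and 416 at an unadjusted p. For the overall effect, members (2) and genes (2215) became 1 with a constant variance, 11 and 6396 with quality weights, 7 members with the replicate block, 1 and 1247 after GC and length correction, 1265 genes with that correction and the block, 1 and 924 with the GC slope, and 0 and 0 at an adjusted p with no fold threshold. For the early-late difference, members and genes (0 and 0) became 2 genes with a constant variance, 16 and 5082 with quality weights, 8 and 1785 with the replicate block and 14 and 4167 at an unadjusted p, and the median (0.14) became -0.069 after GC and length correction, -0.0028 with that correction and the block, and -0.10 with the GC slope. For the vehicle difference, members (4) and genes (1527) became 2 members with a constant variance, 12 and 5067 with quality weights, 1 member and a median of -0.0556 after quantile normalization, 8 and 2533 after GC and length correction, 2292 genes with the GC slope, and 7 and 4072 at an unadjusted p. Leaving out each mouse gave 0 to 16 members and 1 to 4971 genes (late), 0 to 0 and 0 to 0 (early), 1 to 8 and 1313 to 3780 (overall), 0 to 9 and 0 to 2513 (early-late) and 1 to 6 and 944 to 2482 (vehicle), with median log2 fold changes of -0.26 to -0.10, -0.11 to 0.02, -0.11 to -0.05, 0.07 to 0.22 and 0.06 to 0.14. The causes of these changes were not tested. The fit of the late mice alone also had fewer mice. Of the results for single members, 101 lost a call and 42 gained one when a mouse was left out, 54 lost and 78 gained one under the other settings, and the other results, apart from the 3 sign changes named above, stayed on their side of the threshold, where values that were not called could change sign.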
